A study of Mus with 8 samples.

Results

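The 4 Egr genes (Egr1, Egr2, Egr3 and Egr4) and the genes of their corepressors Nab1 and Nab2 were followed in 3T3-L1 cells, a mouse preadipocyte line used as a model of fat cell differentiation. The 6 members were chosen by name out of the 24013 genes counted. Egr1, Egr2, Egr3, Nab1 and Nab2 passed the filter on low counts, which kept 13339 genes, and Egr4 did not. C cells carried a scrambled shRNA and P cells an shRNA against Prep1, a homeodomain protein encoded by Pknox1, both delivered by a lentivirus. RNA was sequenced at day −2, before any inducer was given, and at day 1, after the cells had been moved to medium with 1 μM dexamethasone, 0.5 mM IBMX and 1 μg/ml insulin in 10% serum. The paper's serum was BCS for growth and FBS with the inducers. Induction below stands for day 1 against day −2, which differ in the inducers, the medium with its serum and the time in culture. These cannot be told apart. Each of the 4 conditions had 2 biological replicas, which makes 8 libraries, and the labels do not say whether the infected cells were a clone or a pool.

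The Egr proteins are zinc finger transcription factors of the immediate-early class. Serum, growth factors and cAMP switch on their genes within minutes, through serum response factor (SRF) with its ternary complex partners and through CREB, without the need for new protein. Nab1 and Nab2 have no DNA-binding domain of their own and sit on the repression domain of Egr proteins, and Nab2 is itself an Egr target, which closes a negative feedback loop. In 3T3-L1 cells Egr2, also called Krox20, is known as an early factor upstream of C/EBPβ.

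The libraries held between 20428816 and 27614353 counts, and 3 counts corresponded to between 0.107 and 0.160 CPM (depth-scaled counts, with TMM factors), a floor that covers counting error only. Replica 1 of P cells at day −2 stood apart. Its TMM factor of 0.837 was the lowest, and the SD of the log2 difference between replicas was 0.795 in its condition, against 0.121 to 0.261 in the other conditions. The summed level of the 14 preadipocyte and fibroblast markers was 78886 CPM in this library and between 16932 and 26390 CPM in the other libraries. Col1a1, Col1a2, Col3a1 and Vim made up 75839 CPM of it, the other 10 markers summed to 3046 CPM, inside the range of 2104 to 4044 CPM elsewhere, and 6 of the 14 markers were lower than in replica 2, among them Dcn (7.14 against 22.1 CPM) and S100a4 (474 against 912 CPM). Values without this library are given beside the results that it moved most, from fits that leave 1 library in that condition. Calls in such fits rest on the spread of the other conditions. Of these 14 markers, between 12 and 14 had more than 3 counts in each library, and 1 was at 0 in replica 1 of P cells at day −2. The 9 Schwann cell and neuron markers summed to between 2.31 and 9.76 CPM, and the 12 leukocyte, endothelial, epithelial and muscle markers to between 4.98 and 10.7 CPM; the Schwann cell marker Sox10 had at most 1 count, the leukocyte marker Ptprc at most 8, and the epithelial marker Epcam at most 4. Other markers of these lists were higher, with up to 207 counts for Tubb3, 124 for Des, 113 for Cd68 and 78 for Krt8. The 7 mature adipocyte markers summed to between 0.558 and 1.26 CPM in C cells, to 2.75 and 5.65 CPM in P cells at day −2, and to 68.2 and 73.2 CPM in P cells at day 1. Pknox1 itself had 28.1 and 26.5 CPM in C cells and 17.3 and 18.3 CPM in P cells at day −2, and 38.1 and 36.5 CPM against 23.6 and 23.8 CPM at day 1. Every P library thus lay below every C library of its day, with ratios of 0.652 and 0.636 (edgeR adjusted p = 0.0558 and 0.0575). Genes counted as called had an edgeR adjusted p (quasi-likelihood test, two-sided, Benjamini-Hochberg over all genes) under 0.1 together with a ratio of more than 2 or less than 0.5, and Pknox1 did not reach that ratio. The p-values cover the spread between these replicas, and with 2 libraries on each side the smallest p of an exact permutation test is 0.333.

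Egr1 and Egr2 were higher at day 1 than at day −2 in C cells, and both were already higher in P cells than in C cells before the inducers were given. Nab1 was measured at nearly the same level throughout, Nab2 was high in P cells at day −2 in a way that 1 library dominated, and Egr3 was not called in any comparison.

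**Figure D1:**
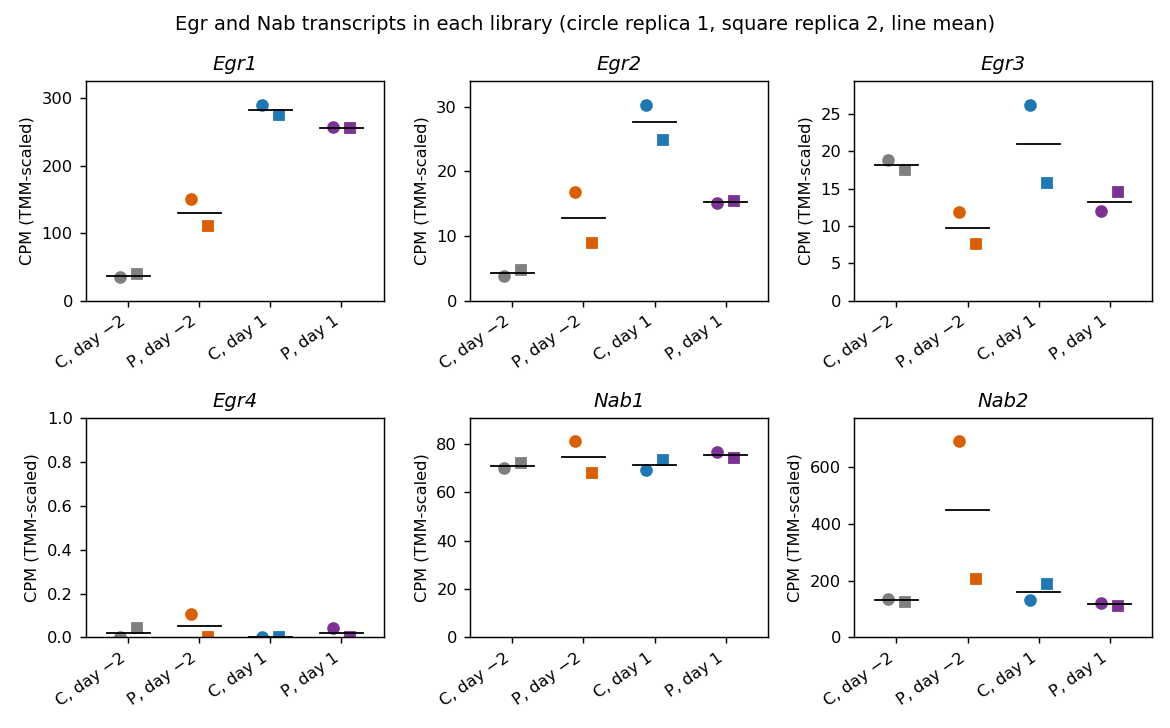
Levels of the 6 genes in each library, in CPM after TMM scaling on linear axes that start at 0, with a circle for replica 1, a square for replica 2 and a line at the mean of the 2 replicas. Egr1 goes from 34.7 and 39.3 CPM in C cells at day −2 to 276 and 291 CPM at day 1, while Nab1 stays between 67.9 and 80.9 CPM in all libraries.

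Egr1 (NCBI gene 13653), the prototype of the family, had 34.7 and 39.3 CPM in uninduced C cells, from 871 and 886 counts. In P cells on the same day it had 150 CPM in replica 1 and 112 CPM in replica 2. At day 1 it had 291 and 276 CPM in C cells, and 258 and 256 CPM in P cells. From low to high the order was uninduced C, uninduced P, induced P and induced C cells, and no neighbours in this order overlapped. By induction Egr1 was 7.66-fold higher in C cells (log2 ratio 2.94, standard error 0.19, edgeR adjusted p = 1.79e-04). In P cells the ratio was 1.96 (log2 0.97, standard error 0.18, edgeR adjusted p = 0.0107), just under the ratio threshold. At day −2 Egr1 was 3.54-fold higher in P than in C cells (log2 ratio 1.82, standard error 0.18, edgeR adjusted p = 0.00346), with 130.9 ± 27.3 against 37.0 ± 3.21 CPM (SD, n = 2 each). In bulk RNA a change in the share of cells that express a gene and a change in RNA per cell cannot be told apart. At day 1 P cells differed from C cells by a log2 ratio of −0.14, with a 95% interval from −0.56 to 0.27. The difference of the log2 responses, P minus C, was −1.96 (standard error 0.25, edgeR adjusted p = 0.0205), tested as an interaction and called at an adjusted p under 0.1 without a ratio threshold.

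Without replica 1 of P cells at day −2, Egr1 was higher in P cells at day −2 by a log2 ratio of 1.60, and its log2 ratio by induction in P cells was 1.19. The difference of the responses lay between −2.16 and −1.65 in its 16 alternatives. Fits without a library of P cells at day −2 have no spread for that condition, so their calls are not counted as support. The call for the difference was lost without any of the other 6 libraries, with log2 differences between −2.06 and −1.88. Fitted with only the 4 libraries of day −2, the P to C ratio had an edgeR adjusted p of 0.107.

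Egr2 (NCBI gene 13654) had 3.87 and 4.70 CPM in uninduced C cells, from 97 and 106 counts. It had 16.8 and 8.88 CPM in P cells at day −2, 30.3 and 24.9 CPM in C cells at day 1, and 15.1 and 15.4 CPM in P cells at day 1. The P cells of both days overlapped, while C cells lay below both at day −2 and above both at day 1. Egr2 rose 6.45-fold in C cells (log2 ratio 2.69, standard error 0.33, edgeR adjusted p = 0.00184), and in P cells its log2 ratio was 0.25, with a 95% interval from −0.47 to 0.98. At day −2 it was 2.99-fold higher in P cells (log2 ratio 1.58, standard error 0.32, edgeR adjusted p = 0.0394). The paper describes Egr2 RNA as unchanged between P and C cells by qRT-PCR, in its account of the response to the inducers. That assay is not part of these counts, and the times it covers may differ from day −2. At day 1 the P to C ratio was 0.552 (log2 −0.86, 95% interval −1.58 to −0.13, edgeR adjusted p = 0.219), which was not called. Its log2 responses differed by −2.44 (standard error 0.44, edgeR adjusted p = 0.0635).

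For Egr2 without replica 1 of P cells at day −2, P cells were higher at day −2 by a log2 ratio of 1.06, and the difference of the responses was −1.95. The day −2 call was lost with only the 4 libraries of that day (edgeR adjusted p = 0.250), without replica 1 or 2 of C cells (0.310 and 0.234) and without replica 1 or 2 of P cells at day 1 (0.102 and 0.103). The difference of the responses was lost without any library of the other 3 conditions (edgeR adjusted p from 0.210 to 0.348) and with the replicate number as a block (0.133).

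Egr3 (NCBI gene 13655), a close relative that binds the same GC-rich element, did not follow Egr1 and Egr2. It had 18.8 and 17.5 CPM in C cells at day −2, 11.8 and 7.56 CPM in P cells at day −2, 26.2 and 15.7 CPM in C cells at day 1, and 12.01 and 14.5 CPM in P cells at day 1. All P libraries lay below all C libraries, and the C cells of both days overlapped. The log2 ratio by induction was 0.21 in C cells (95% interval −0.53 to 0.94) and 0.46 in P cells (−0.29 to 1.21). Between P and C cells it was −0.91 at day −2 (standard error 0.32, edgeR adjusted p = 0.140) and −0.66 at day 1 (standard error 0.31, edgeR adjusted p = 0.371), and neither was called. The comparison at day −2 had a log2 ratio of −1.26 when replica 1 of P cells was left out. It was called with library totals in place of TMM (−1.13, edgeR adjusted p = 0.0823). Induction in C cells turned to a log2 ratio of −0.18 without replica 1 of C cells at day 1. Its responses differed by 0.25 (95% interval −0.80 to 1.30), not called.

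Egr4 (NCBI gene 13656) had 0 to 2 counts in each library. Every library was under the floor of 3 counts, so Egr4 was not detectable at this depth, and no ratio is given. Tested without the filter on low counts, its edgeR adjusted p-values lay between 0.654 and 0.890.

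Nab1 (NCBI gene 17936), the more widely expressed corepressor, had 69.9 and 71.8 CPM in C cells and 80.9 and 67.9 CPM in P cells at day −2, and 69.3 and 73.1 CPM in C cells and 76.3 and 73.9 CPM in P cells at day 1. The conditions differed by less than the spread of P cells at day −2. Its log2 ratios were between 0.01 and 0.08 in the 4 comparisons, with 95% intervals that reached from −0.33 at the lowest to 0.42 at the highest, and library totals in place of TMM turned its sign for induction in C cells (−0.10) and for P against C cells before induction (−0.13), as the size factors of DESeq2 did for induction in P cells (−0.00849). All 4 intervals lay within a 2-fold change in either direction.

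Nab2 (NCBI gene 17937), which recruits the NuRD chromatin remodelling complex through Chd4, had 137 and 124 CPM in C cells at day −2. In P cells on that day it had 691 CPM in replica 1, from 12971 counts, and 208 CPM in replica 2, from 5819 counts. At day 1 it had 132 and 190 CPM in C cells, and 121 and 112 CPM in P cells. Both P libraries of day −2 thus lay above all other libraries, and the replicas differed from each other by more than replica 2 differed from C cells. Nab2 was 3.44-fold higher in P than in C cells at day −2 (log2 ratio 1.78, standard error 0.51, edgeR adjusted p = 0.0956), and it fell with induction in P cells by 1.95 on the log2 scale (standard error 0.51, edgeR adjusted p = 0.0384). Its log2 ratio by induction in C cells was 0.30 (95% interval −0.87 to 1.48), and between P and C cells at day 1 it was −0.47 (−1.64 to 0.71). Its responses differed by −2.25 (standard error 0.71, edgeR adjusted p = 0.237), not called.

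**Figure D2:**
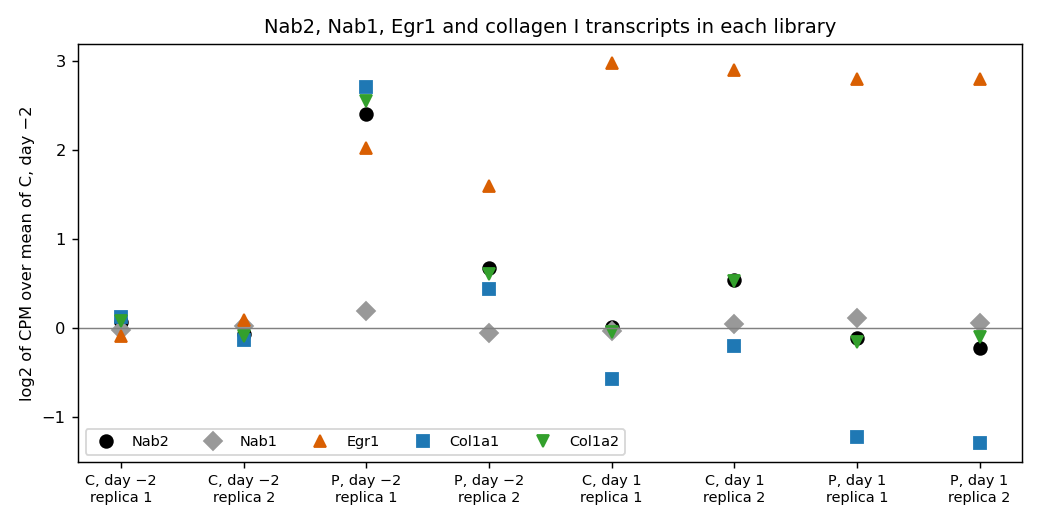
Levels of Nab2, Nab1, Egr1 and the collagen I genes Col1a1 and Col1a2 in each library, as log2 of the CPM over the mean of C cells at day −2. Nab2 lies close to Col1a2 in all 8 libraries and both peak in replica 1 of P cells at day −2, whereas Egr1 is highest in the 4 libraries of day 1.

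The Nab2 calls depended on replica 1 of P cells at day −2, in which Col1a1 and Col1a2, the chains of collagen I, had 23560 and 28501 CPM, against at most 4882 and 7431 CPM in any other library. Without it, the log2 ratio between P and C cells before induction was 0.68 and that of induction in P cells was −0.85, both short of the ratio threshold. The difference of the responses was then −1.17. The call at day −2 was also lost without any library other than replica 2 of P cells at day −2 (edgeR adjusted p from 0.167 to 0.464 for the other 6), with library totals (0.106), with only the 4 libraries of that day (0.353) and with the replicate block (0.166). The call by induction in P cells was lost without replica 1 or 2 of P cells at day 1 (edgeR adjusted p = 0.182 and 0.207) and with only the P libraries (0.160). The part of this library's other differences in the Nab2 level was not tested.

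Counted over the comparisons, induction in C cells called 2 of the 5 tested members, Egr1 and Egr2, both higher, where 20.4% of all genes were called, 10.7% higher and 9.68% lower. Induction in P cells called Nab2 alone, lower, where 18.0% of all genes were called, 7.65% higher and 10.4% lower. At day −2, 3 of the 5 (Egr1, Egr2 and Nab2) were higher in P than in C cells, where 6.98% of all genes were called, 4.83% higher and 2.15% lower. At day 1 edgeR called 0 of the 5, where 4.06% of all genes were called, 1.83% higher and 2.23% lower; DESeq2 also called 0, and 1 member, Egr2, had an unadjusted p under 0.05. The difference of the responses called Egr1 and Egr2, both lower in P cells, where 2.37% of all genes were called and 1.93% lower. Libraries of the conditions compared did not overlap for 2 of the 5 members by induction in C cells (77.7% of all genes), 3 by induction in P cells (60.6%), 4 at day −2 (53.8%) and 5 at day 1 (60.5%). The median log2 ratio of the 5 members between P and C cells was 1.58 at day −2 (the value of Egr2) and −0.47 at day 1. The medians over all genes were 0.01 and 0.01. Without replica 1 of P cells at day −2, the log2 ratios of that day were 1.60 for Egr1, 1.06 for Egr2, 0.68 for Nab2 and −1.26 for Egr3. The median at day −2 thus depends on that library, and Nab2 was then short of the ratio threshold. The comparisons share libraries, so the higher level at day −2 and the smaller response in P cells are not independent of each other.

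**Figure D3:**
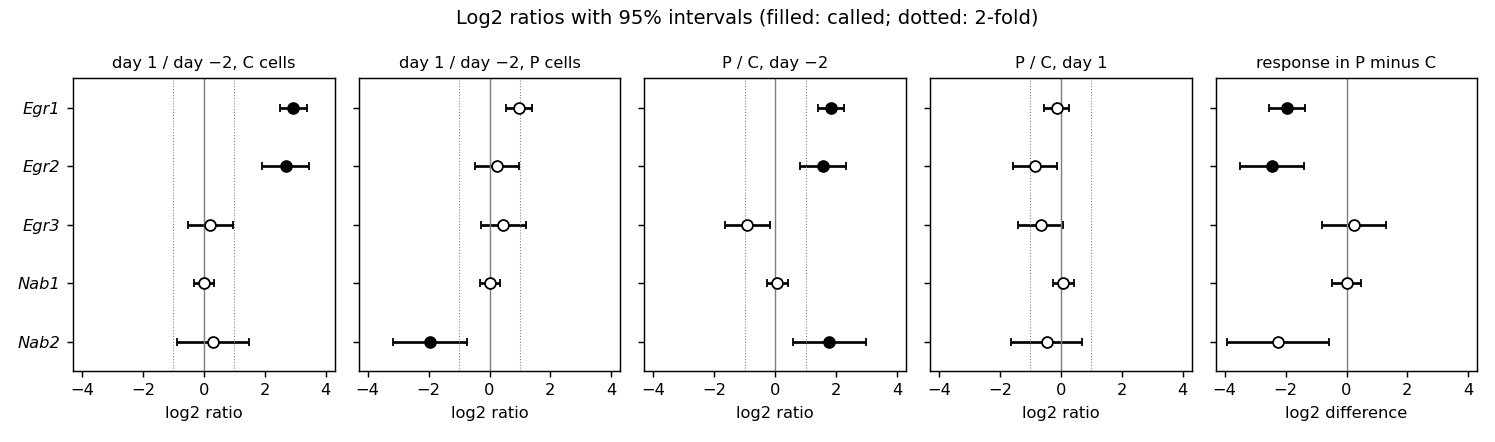
Log2 ratios of the 5 tested members in the 4 comparisons and the difference of the responses, with 95% intervals, filled where called and open where not, with dotted lines at a 2-fold ratio. Egr1 and Egr2 lie right of 0 by induction in C cells and for P over C cells before induction, and left of 0 in the difference, while Nab1 lies at 0 in every panel.

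The make-up of the Egr transcripts was set side by side within each library, as ratios of reads that do not depend on scaling but depend on gene length, so that only their shifts between libraries are read. In C cells at day −2 Egr3 had 4.87 and 3.74 times the reads of Egr2, and in the other 6 libraries between 0.631 and 0.945 times. Against Egr1, Egr3 had 0.542 and 0.447 times the reads in C cells at day −2 and between 0.0466 and 0.0902 times elsewhere. Egr1 made up 60.5% and 63.8% of all Egr reads in C cells at day −2 (Wilson 95% intervals 57.9 to 63.0% and 61.2 to 66.3%, for counting error only) and between 83.7% and 90.5% in the other 6 libraries. Egr3 made up 32.8% and 28.5% in C cells at day −2 and between 4.22% and 7.55% elsewhere. P cells before induction thus lay with the induced libraries in the Egr3 to Egr2 ratio. They had 0.705 and 0.851 against 0.865 and 0.631 in C cells at day 1, values which overlap. The changes behind this ratio were not the same. Egr2 and Egr3 had log2 ratios of 2.69 and 0.21 by induction in C cells. Between P and C cells at day −2 these were 1.58 and −0.91, and Egr3 was called in neither. Egr2 had 0.111 and 0.120 times the reads of Egr1 in uninduced C cells, 0.112 and 0.0796 times in uninduced P cells and 0.104 and 0.0905 times in induced C cells, and was below these values in P cells at day 1 (0.0587 and 0.0600). Nab2 had 3.94 and 3.17 times the reads of Egr1 in C cells at day −2, 4.60 and 1.86 times in P cells at day −2, and between 0.436 and 0.689 times in the 4 libraries of day 1. These ratios carry no test beyond the exact permutation limit of 0.333.

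**Figure D4:**
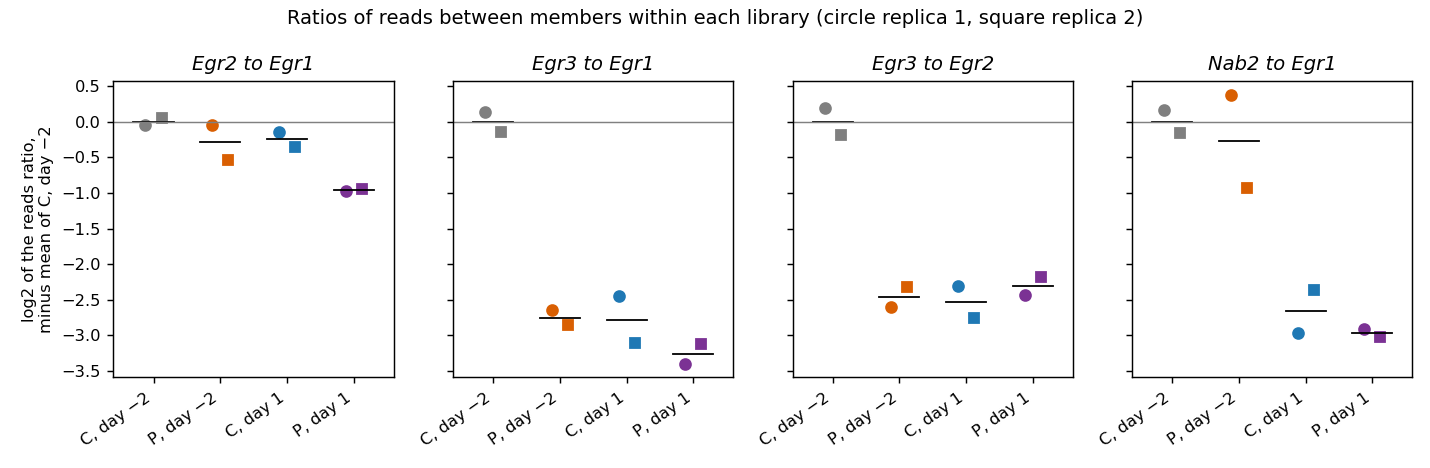
Ratios of reads between members within each library, as log2 minus the mean of C cells at day −2, with circles for replica 1, squares for replica 2 and lines for means. The ratio of Egr3 to Egr2 is lower by 2.17 to 2.76 on this scale in all 6 libraries outside C cells at day −2, and the ratio of Egr2 to Egr1 is lowest in P cells at day 1.

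Likeness to other genes was taken as Pearson's r of log2 CPM over the 8 libraries, among 10903 genes with a mean of at least 50 counts, as a description in which all points share libraries and conditions. The profile of Egr1 was closest to those of Tap1 (r = 0.995), Clec14a (0.994) and Cebpa (0.994), and among the genes closest to Egr2 were Klf2 (0.985) and Rbfox2 (0.985). Nab2 was closest to Col1a2 (0.997), Akt1 (0.990) and Igsf8 (0.988). For Egr3 the highest values were those of Eva1c (0.941), Ulk4 (0.941) and Scyl3 (0.937), and for Nab1 those of Cxxc1 (0.930), Plekhg3 (0.926) and Lemd3 (0.924). Within the family, Egr1 and Egr2 had r = 0.951, Egr1 and Egr3 −0.04, and Egr1 and Nab2 0.05.

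Upstream of the Egr genes, the transcripts of their activators were called about as often as all genes by induction in C cells, 2 of 12 beside 20.4%. Among these 12 genes for SRF, its ternary complex and coactivator partners and the CREB family, induction in C cells called Crem higher (log2 ratio 1.44, edgeR adjusted p = 0.0563), a CREB relative with an inducible repressor form, and Elk3 lower (−1.47, edgeR adjusted p = 7.00e-04), a ternary complex factor. Elk3 had 108 and 109 CPM in C cells at day −2 and 38.8 and 39.6 CPM at day 1, and at day 1 the P to C ratio was 0.530 (edgeR adjusted p = 0.0206), short of the threshold of 0.5. Between P and C cells edgeR called 0 of the 12 at either day, beside 6.98% and 4.06% of all genes, and DESeq2 also 0, while 4 had an unadjusted p under 0.05 at day −2 and 1 at day 1. Srf itself had 96.4 and 87.0 CPM in C cells and 231 and 126 CPM in P cells at day −2 (log2 ratio 0.96, edgeR adjusted p = 0.0958), just short of the ratio threshold, and 0.47 without replica 1 of P cells.

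Of 25 genes of the MAP kinase pathway with its receptors and phosphatases, induction in C cells called 5 higher and 5 lower, beside 10.7% and 9.68% of all genes. At day −2, 3 were higher and 2 lower in P than in C cells, beside 4.83% and 2.15%. The latter counts changed little without replica 1 of P cells. Spry1, a feedback inhibitor of receptor tyrosine kinases, had 10.0 and 9.35 CPM in C cells and 58.3 and 44.7 CPM in P cells at day −2, then 22.8 and 22.7 CPM against 24.0 and 20.4 CPM at day 1. It was higher in P cells at day −2 (log2 ratio 2.41, standard error 0.19, edgeR adjusted p = 0.00200), with log2 ratios between 2.20 and 2.58 in the 18 alternatives. Calls in the fits without a library of P cells at day −2 are not counted as support. Spry1 rose with induction in C cells (1.23), fell in P cells (−1.21), and its response differed by −2.45 (edgeR adjusted p = 0.0127). The receptors Pdgfrb and Egfr were higher in P cells at day −2 (log2 ratios 1.53 and 1.33), and the kinase gene Rps6ka1 and the phosphatase gene Dusp4 lower (−1.19 and −1.36). With induction in C cells Dusp1, a phosphatase that shuts off MAP kinases, and Pdgfra rose most in this list (log2 ratios 2.50 and 1.91), and Dusp4 and Pdgfrb fell most (−2.60 and −1.58). The kinases of the Ras, Raf, Mek and Erk steps were not called between P and C cells.

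The other immediate-early genes gave the setting in which Egr1 and Egr2 moved. Day 1 was the only time sequenced after the inducers, so levels in the first minutes and hours were not measured. Of 30 tested, induction in C cells called 16 higher and 2 lower (median log2 ratio 1.15), beside 10.7% and 9.68% of all genes. Induction in P cells called 6 higher and 5 lower (median 0.29), beside 7.65% and 10.4%. Before induction, P against C cells gave 9 higher and 3 lower (median 0.67), beside 4.83% and 2.15%. At day 1 there were 0 higher and 3 lower (median −0.49), beside 1.83% and 2.23%. The medians over all genes were between −0.01 and 0.02 in these comparisons. Fos, the partner of Jun in AP-1, had 25.7 and 38.0 CPM in C cells at day −2, 317 and 78.3 CPM in P cells at day −2, 771 and 952 CPM in C cells and 502 and 539 CPM in P cells at day 1, and was higher in P cells at day −2 (log2 ratio 2.63, edgeR adjusted p = 0.0559), a call lost in 9 of 18 alternatives. Without replica 1 of P cells at day −2 this log2 ratio of Fos was 1.31. Nr4a1, an orphan nuclear receptor, had 39.7 and 37.2 CPM in C cells and 135 and 93.3 CPM in P cells at day −2 (log2 ratio 1.57, edgeR adjusted p = 0.0111). Btg2, an antiproliferative gene, went from 10.2 and 10.2 CPM in C cells to 76.0 and 44.2 CPM in P cells at day −2 (2.55, edgeR adjusted p = 0.00377), above its 42.5 and 40.1 CPM in C cells at day 1. Zfp36, which destabilizes AU-rich messages, was higher in P cells at day −2 as well (1.54, edgeR adjusted p = 0.0109). Nr4a3 had only 2 counts in each C library at day −2, 20 and 21 counts in P cells on that day, and 72 and 83 counts in C cells at day 1; the pooled P to C ratio before induction was 10.4, with a counting interval from 3.78 to 40.1. In the opposite direction, the phosphatase gene Dusp2 was lower in P cells at day −2 (−2.53, edgeR adjusted p = 0.0306), and Ier3 and Ctgf fell with induction in C cells (−1.10 and −2.69).

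**Figure D5:**
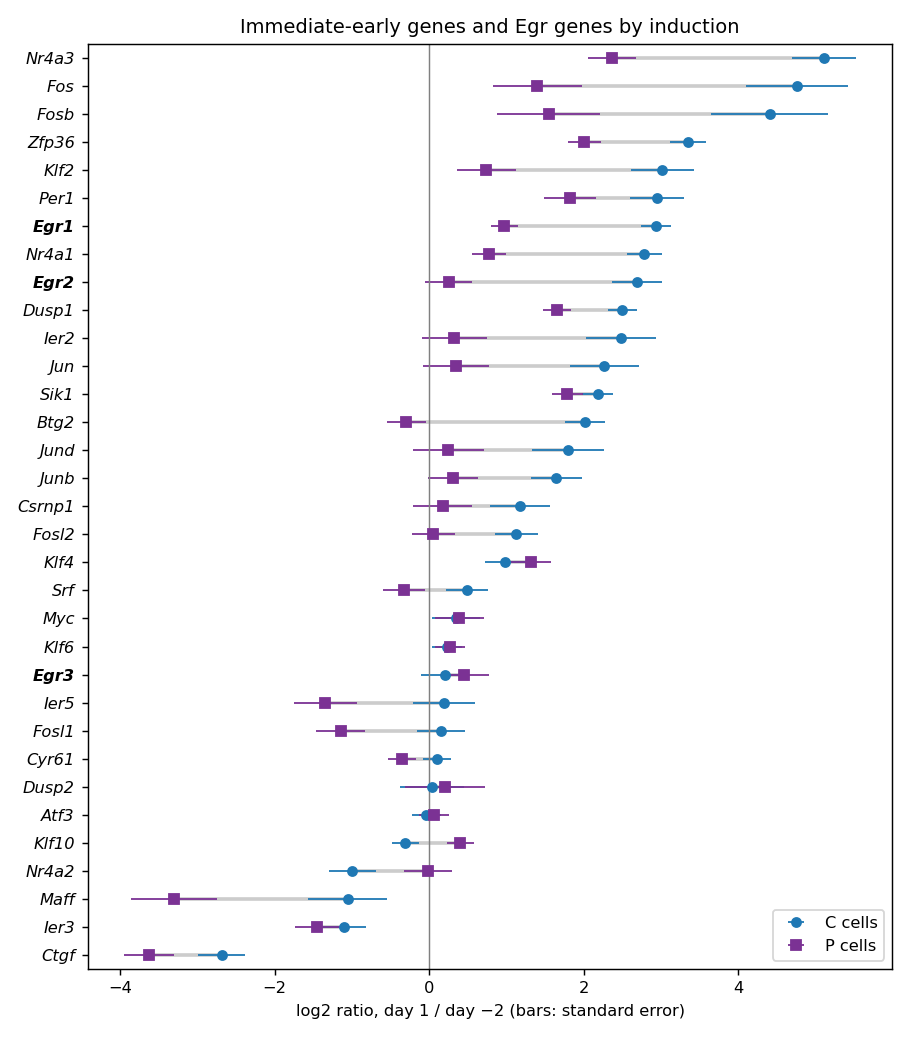
Log2 ratios of day 1 over day −2 in C cells (circles) and P cells (squares) for the 30 tested immediate-early genes and for Egr1, Egr2 and Egr3 (bold), with bars of 1 standard error. The square lies left of the circle for Egr1 and Egr2, and the difference was called for these as for Nr4a1, Nr4a3 and Btg2.

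The difference of the responses called 3 of these 30 genes, all lower in P cells, beside 1.93% of all genes called lower. The calls were Nr4a1 (−2.01, edgeR adjusted p = 0.0388), Btg2 (−2.31, edgeR adjusted p = 0.0388) and Nr4a3 (−2.74, edgeR adjusted p = 0.0760). Of the alternatives, Nr4a1 and Btg2 were lost in 6 of 16 and Nr4a3 in 8 of 15. The count at day −2 changed when single libraries were left out. Fewer were called without replica 1 of P cells at day −2, either C library of that day or any library of day 1. More were called without replica 2 of P cells at day −2. The 3 calls for the difference were lost without any library of a condition other than P cells at day −2. Counts over all genes moved in these fits too, so the changed counts are not read as a trait of these genes.

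Among 26 genes listed as Egr targets, which include Nab2, induction in C cells called 8 higher and 5 lower, beside 10.7% and 9.68% of all genes. Induction in P cells called 4 higher and 10 lower, beside 7.65% and 10.4%. At day −2, 6 were higher and 1 lower in P than in C cells, beside 4.83% and 2.15%. Fewer were called without replica 1 of P cells, without either C library of day −2 and without any library of day 1. Thbs1, thrombospondin 1 of the extracellular matrix, had 884 and 886 CPM in C cells and 5483 and 3815 CPM in P cells at day −2, and 299 and 335 CPM against 294 and 274 CPM at day 1. It was higher in P cells at day −2 (log2 ratio 2.39, standard error 0.21, edgeR adjusted p = 0.00242), with log2 ratios between 2.12 and 2.63 in the 18 alternatives. Calls in the fits without a library of P cells at day −2 are not counted as support. Thbs1 fell with induction in both, so that its direction by induction in C cells (−1.48) was opposite to that of Egr1. The stress cytokine gene Gdf15 and the cell cycle inhibitor gene Cdkn1a were higher in P cells at day −2 (2.81 and 1.48). Cdkn1a had 59.1 and 62.9 CPM in C cells and 232 and 109 CPM in P cells, its call was lost in 8 of 18 alternatives, and without replica 1 of P cells its log2 ratio was 0.84, short of the ratio threshold, while that of Gdf15 was 2.14. Pdgfb, a growth factor chain, was lower (−2.55, edgeR adjusted p = 0.0150), with 5.34 and 4.96 CPM in C cells and 1.17 and 0.606 CPM in P cells, and it was left with 1 count in each library of day 1.

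The largest changes of these targets by induction in C cells did not share a direction. Igf2, a growth factor, had 1.71 and 1.82 CPM at day −2 and 290 and 302 CPM at day 1 (log2 ratio 7.39), and Sphk1, a sphingosine kinase, rose by 3.84. Plau, the urokinase plasminogen activator, fell from 32.2 and 30.9 CPM to 2.21 and 2.27 CPM (−3.81). Fn1, fibronectin, had 3729 and 3663 CPM in C cells at day −2, 11523 and 11998 CPM in C cells at day 1 and 5228 and 5215 CPM in P cells at day 1, and the difference of its responses was −0.94 (edgeR adjusted p = 0.0967), a call lost in 11 of 16 alternatives.

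Egr2 and Klf4 are known to act together on Cebpb in 3T3-L1 cells, at the head of a cascade of adipogenic factors. Of 6 genes of this cascade (Klf4, Klf5, Cebpb, Cebpd, Cebpa and Pparg), 3 were higher in P cells at day −2, beside 4.83% of all genes. These were the C/EBP genes. Cebpb had 94.0 and 109 CPM in C cells and 260 and 169 CPM in P cells (log2 ratio 1.08, edgeR adjusted p = 0.0453). This call differs from the paper, which reports no significant change of Cebpb with the knockdown, by RNA-seq and by qPCR. Cebpd had 6.65 and 9.04 CPM against 64.5 and 32.9 CPM (2.63, edgeR adjusted p = 0.00819). Cebpa had 0.757 and 0.842 CPM against 7.51 and 3.39 CPM (2.75, edgeR adjusted p = 0.0131). Cebpd and Cebpa were also called in the difference of the responses (−2.53 and −2.61, edgeR adjusted p = 0.0617 and 0.0836), beside Egr1 and Egr2, each lost in 8 of 16 alternatives. At day −2 Cebpb was lost in 9 of 18 alternatives, Cebpa in 3 and Cebpd in 2. Klf4, the factor named together with Egr2, had 59.2 and 75.9 CPM in C cells and 49.5 and 29.4 CPM in P cells at day −2 (−0.78, edgeR adjusted p = 0.131), not called, and neither Klf5 nor Pparg was called on that day. Without replica 1 of P cells at day −2 the log2 ratio of Cebpb was 0.75, short of the ratio threshold, and which of the 6 genes were called changed. In the cascade at day 1 edgeR and DESeq2 called 0 of the 6 between P and C cells, with 1 at an unadjusted p under 0.05, where edgeR called 4.06% of all genes.

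The partners of the corepressors were compared between P and C cells in the same way. Among 13 genes of the NuRD complex, edgeR called 0 at day −2 and 0 at day 1, beside 6.98% and 4.06% of all genes. There were 4 and 1 at an unadjusted p under 0.05, and DESeq2 called 1 and 0. With so few genes, these counts do not set the complex apart from all genes. Chd4, the subunit that Nab2 binds, had 687 and 623 CPM in C cells and 895 and 580 CPM in P cells at day −2 (log2 ratio 0.17, edgeR adjusted p = 0.629). Mta3 fell with induction in C cells (−1.04, edgeR adjusted p = 0.0227). Among 9 tested genes for other partners and modifiers of Egr proteins, edgeR called 0 at day −2, beside 6.98% of all genes, with 2 at an unadjusted p under 0.05 and 0 by DESeq2. Wwp2 had an edgeR adjusted p of 0.0328 there at a ratio of 0.613, short of the threshold. At day 1 edgeR called Wwp2 lower in P cells (−1.36, edgeR adjusted p = 0.00524), a ubiquitin ligase for which 31.5 and 30.8 CPM were measured in P cells against 77.7 and 82.0 CPM in C cells.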

How the data were processed

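Total RNA of 8 libraries was sequenced on the Ion Torrent system. The authors removed artifacts with the FASTX-Toolkit, aligned the reads to mm9 with TopHat2 2.0.9 and deposited unnormalized read counts per NCBI gene on the refGene annotation. Strand and shared reads are not given in the sources used here. All per-sample columns were used. A RefSeq list of a later build (GRCm38.p6) gave symbols for 23929 genes, and 84 kept their number.

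The deposited counts went into edgeR 4.0.16 under R 4.3.3 (filterByExpr, TMM, glmQLFit and glmQLFTest, 1 mean per condition over all 8 libraries) and limma 3.58.1. Depths ran from 20428816 to 27614353 counts. The standard error is the log2 ratio over the root of F. The adjusted p threshold follows the study's methods. DESeq2 1.42.0 was an alternative.

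The members and gene lists were chosen with earlier results of these data known. Named genes were all members, Pknox1, and from each list those called in P against C cells at day −2 (at most 5) or in the difference (at most 3), the 2 highest and 2 lowest called by induction in C cells, and the 3 genes most like each member. A few genes that this rule names are not reported here. Fos, Srf, Klf4, Klf5, Pparg, Chd4, Wwp2 and the markers (Sox10, Ptprc, Epcam, Tubb3, Des, Cd68, Krt8, Col1a1, Col1a2, Col3a1, Vim, Dcn and S100a4) were named outside this rule or from the markers, after their values were seen.

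On simulated counts of 13339 genes with 200 changed 4-fold, 77%, 83%, 77% and 78% were called in the 4 comparisons. In the difference 58% were called, and there were 13 to 19 false calls. The simulation gave a gene the same dispersion in every condition and shifted no library as a whole. The replicas of P cells at day −2 differed more widely (SD of the log2 difference 0.795). These rates thus do not carry over to comparisons that use that condition. Alternatives were DESeq2, its size factors, library totals, no filter, at least 10 counts in every library, only the conditions compared, the replicate block, an adjusted p under 0.05, dropping the ratio threshold, and leaving out each library in turn. A crossed block was added after the data were seen. The labels named no batch.

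Replica numbers came from the labels. The deviations of same-numbered libraries correlated between −0.355 and 0.209, negative in 5 of 6 pairs of conditions, so the numbers were not taken as pairing the libraries.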

Additional observations from a re-analysis of the deposited data

Results flagged for a closer look

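The genes given here had an induction response that was not the same in P as in C cells by edgeR's interaction test, and values are log2 responses of P minus those of C cells. Among the members these were Egr1, with −1.96, and Egr2, with −2.44. Of the immediate-early genes, Nr4a1 had −2.01, Btg2 −2.31 and Nr4a3 −2.74, the last with only 2 counts in each C library of day −2. In the MAP kinase list Spry1 had −2.45. Of the Egr targets, Thbs1 had −2.55 and Fn1 −0.94. In the cascade of adipogenic factors, Cebpd had −2.53 and Cebpa −2.61. The calls for Spry1 and Thbs1 were lost in 4 of 16, and that for Fn1 was lost in 11 of 16. No group had 4 or more libraries, so no test for outlying values of single libraries was run within a group. Replica 1 of P cells at day −2 was described apart, and each library was left out in turn.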

How the results depend on the processing

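In the members, the calls of Egr1 and Egr2 by induction in C cells held in all 18 alternatives. Egr1 in P against C cells at day −2 was lost in 1 of 18, Egr2 in 5 and Nab2 in 11. The differences of Egr1 and Egr2 were lost in 6 and 8 of 16. Counts of alternatives, here and for the listed genes, include the fits without a library of P cells at day −2. Calls in those fits are not counted as support. The number of members called moved to 2 for induction in P cells with library totals or no ratio threshold, and to 0 with only the conditions compared, which also gave 0 at day −2. For the difference it was 1 at an adjusted p under 0.05. Leaving out single libraries gave 0 to 1 members for induction in P cells, 1 to 3 at day −2 and 0 to 3 for the difference, beside 2 and 0 for the other comparisons.

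Among all genes, no ratio threshold called 4743 and 4192 by induction in C and P cells, 1513 at day −2 and 820 at day 1. Only the conditions compared gave 1213 by induction in P cells, 81 at day −2 and 899 at day 1. An adjusted p under 0.05 gave 602 at day −2 and 174 for the difference, for which DESeq2 gave 930. Single libraries left out gave 1664 to 3329 and 1248 to 5000 by induction in C and P cells, 188 to 4380 at day −2, 63 to 994 at day 1 and 32 to 8395 for the difference. The highest number of each comparison came without a library of P cells at day −2, which left 1 library in the condition with the widest spread. Of the listed genes, 2 were called at day −2 with only the conditions compared, and 30, 14 and 5 for the difference with DESeq2, without the filter and at an adjusted p under 0.05. Without single libraries these were 3 to 46 at day −2, 0 to 13 at day 1 and 1 to 95 for the difference. Library totals moved the median of all genes by −0.11, 0.17, −0.18, 0.10 and 0.29 and the share of higher calls from 42.4% to 54.5% by induction in P cells, 69.2% to 55.4% at day −2 and 18.4% to 31.6% for the difference.

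With the replicate block, 2 members were called at day −2 and 1 for the difference, among 597 and 117 genes in all and 5 listed genes for the difference, and the other counts stayed within 1.5 times. With all day 1 numbers crossed the members called were 2, 1, 3, 0 and 2.

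Signs turned only for ratios near 0. Egr3 went to −0.18 by induction in C cells without C day 1 replica 1 (range to 0.54), and its difference ranged from −0.0676 (without C day 1 replica 2) to 0.65, with −0.0400 without P day −2 replica 2. Egr2 went to −0.13 by induction in P cells without P day −2 replica 2 and ranged to 0.77. Nab1 by induction in C cells was −0.10 with library totals, −4.20e-04 with 10 counts in every library, −0.00719 without C day −2 replica 1 and −0.0187 without C day 1 replica 2, with 0.0739 as the highest without a library. By induction in P cells it was −0.00768 with DESeq2, −0.00849 with its size factors, −0.0993 without P day −2 replica 2 and −0.00168 without P day 1 replica 1, with 0.14 as the highest without a library and 0.21 with library totals. At day −2 it was −0.13 with library totals and −0.0515 without P replica 1, up to 0.19 without P replica 2. Its difference was −0.0124 with DESeq2, −0.0132 with its size factors, and between −0.11 and −0.0131 without C day −2 replica 2 (−0.0131), P day −2 replica 2 (−0.11), C day 1 replica 1 (−0.0450) or P day 1 replica 1 (−0.0165), up to 0.11 without P day −2 replica 1. The cause of these shifts was not tested. The planned change of the prior count was not run, since no level is printed on the log2 CPM scale. Depth leaves Egr4 below detection, and 2 replicas per condition limit every test.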
